A study of Arabidopsis with 2 samples.

Results

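The type-A response regulators of Arabidopsis are a family of 10 genes, ARR3 to ARR9 and ARR15 to ARR17, and the arrays carried 1 probe for each of the 10 among probes for 21500 genes. They were taken by their locus identifiers from the gene probes of both scanner files. The identifiers were AT1G59940 for ARR3, AT1G10470 for ARR4, AT3G48100 for ARR5, AT5G62920 for ARR6 and AT1G19050 for ARR7. They were AT2G41310 for ARR8, AT3G57040 for ARR9, AT1G74890 for ARR15, AT2G40670 for ARR16 and AT3G56380 for ARR17. The probe descriptions on the array follow other naming schemes, so that the ARR7 probe is described as a response regulator 5 and the ARR15 probe as a response regulator 7. The RefSeq table of assembly TAIR10.1 gives the ARR name used here for all 10 identifiers, as symbol or synonym.

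Cytokinin is perceived by histidine kinase receptors, which pass a phosphate group through histidine phosphotransfer proteins to the type-B response regulators. These DNA-binding proteins then switch on target genes, among which the type-A response regulators are the classical early ones. Type-A proteins have a receiver domain but no DNA-binding output domain, and they dampen the same pathway, so their transcripts are widely read as a gauge of cytokinin response. In the shoot meristem, the KNOX protein STM promotes cytokinin synthesis, and WUS represses several type-A genes. In the early embryo, ARR7 and ARR15 are known to respond to auxin at the root pole.

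The study compared wild-type Ler embryos with embryos of the cuc1-1 cuc2-1 double mutant, which fails to form a shoot meristem. The mutant embryos came from plants homozygous for cuc1-1 and heterozygous for cuc2-1, and how they were told from other embryos is not given in the sources used here. Each extract was a pool of whole embryos, about 100, recorded as torpedo stage, and all plants were untreated. The 2 extracts competed on 2 arrays with the dyes exchanged. The arrays are named here by the dye of the mutant. In the Cy5 hybridization cuc1 cuc2 carried Cy5, and in the Cy3 hybridization it carried Cy3. There was 1 biological sample per genotype, so the spread between the hybridizations is technical and no test across embryo samples could be made. In whole embryos, fewer cells of a type and less RNA per cell cannot be told apart.

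The RNA had the markers of embryos. All 5 embryo regulators looked at, LEC1, FUS3, LEC2, ABI3 and NF-YB6, were well above background in all 4 channels, the scanner software's criterion for a measurable spot. Of the seed coat genes, BAN and TT12 were well above background in no channel, while TT10 and MUM2 were in all 4. Among 5 endosperm genes, AGL62, RGE1 and SUC5 were in all 4, FIS2 was in 3 and PHE1 in none. Of these 14 markers, only NF-YB6 was called, with a mean log2 ratio of 0.66, while the endosperm genes ran from -0.24 for FIS2 to 0.40 for SUC5 and the seed coat genes from -0.048 to 0.0044. The 95% interval of SUC5, 0.037 to 0.76, did not include 0. Its deposited p-values were 0.775 in the Cy5 hybridization and 0.0026 in the Cy3 hybridization. The part of carried-over seed tissue in the results was not tested. Ratios below are those of cuc1 cuc2 over Ler on the log2 scale, as the mean of both hybridizations unless 2 values are given. STM was at -2.08, with a 95% interval of -2.57 to -1.60. CUC2 was at -0.81 and CUC1 at -0.045.

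None of the 10 type-A ARR genes was called lower or higher in cuc1 cuc2. On the 5 probes that gave a measurable signal throughout, the mean ratios lay between -0.19 and 0.064. A gene was called where the software's p-value was under 0.01 in both hybridizations with the same direction. This rule called 52 of all gene probes lower (0.242%) and 108 higher (0.502%). The lowest of all deposited p-values of the family was 0.122, for ARR7 in the Cy3 hybridization. The number of members with a deposited p-value under 0.05 in either hybridization was 0, beside 1243 of all 21500 gene probes. The p-value comes from the error model of a single array and carries no spread between embryos. The 95% interval of the mean log2 ratio, computed from the same errors, contained 0 for all 10 genes.

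**Figure D1:**
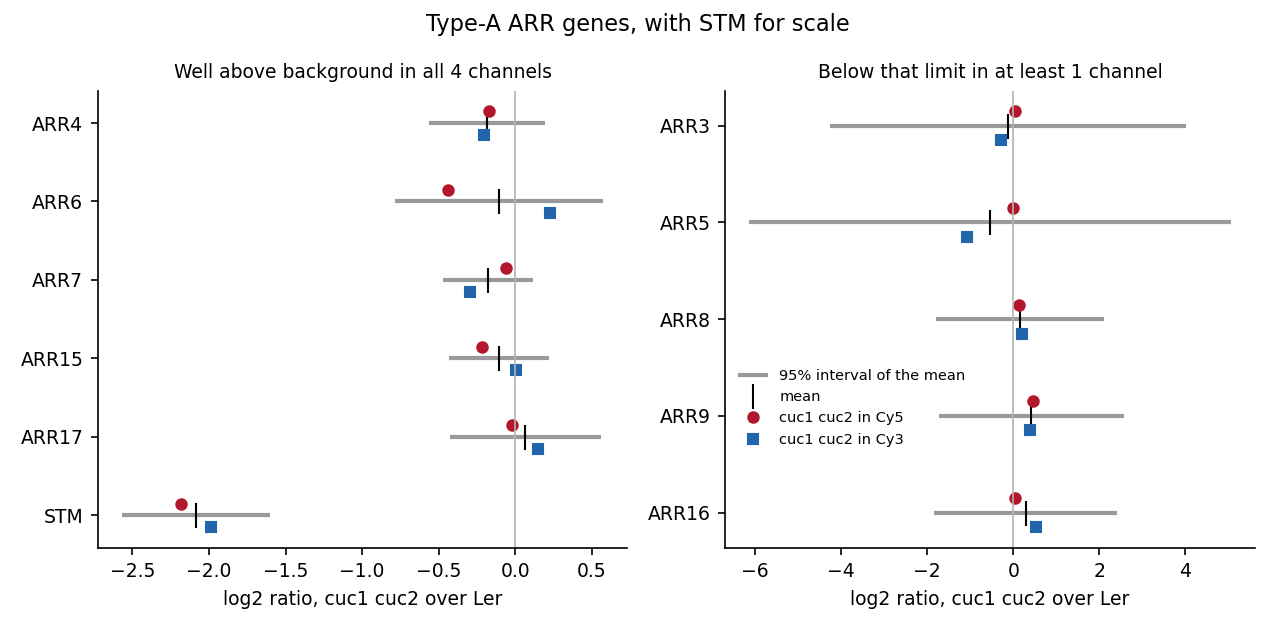
Log2 ratio of cuc1 cuc2 over Ler for each type-A ARR gene, in the Cy5 hybridization (circles) and the Cy3 hybridization (squares), with the mean (tick) and its 95% interval from the deposited errors (grey line). The left panel, with STM for scale, holds the 5 genes well above background in all 4 channels, whose means lie between -0.19 and 0.064; the right panel holds the other 5 on a wider axis.

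Brightness split the family. ARR4, ARR6, ARR7, ARR15 and ARR17, 5 of the 10, were well above background in both genotypes of both hybridizations, against 84.2% of all gene probes. ARR8 and ARR16 met this in 3 of 4 channels and missed it only for Ler in the Cy3 hybridization. ARR9 met it for cuc1 cuc2 in both hybridizations and for Ler in neither. ARR3 and ARR5 met it in no channel. None of the 10 probes was saturated or marked as uneven or as an outlier.

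**Figure D2:**
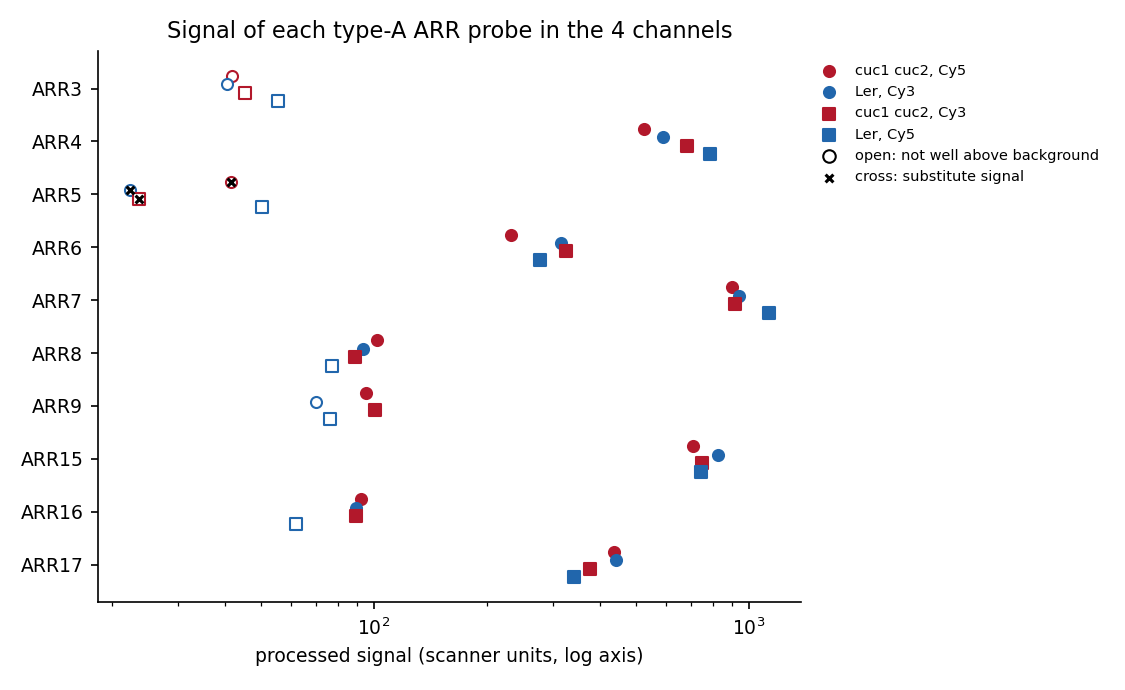
Processed signal of each type-A ARR probe in scanner units on a log axis, for cuc1 cuc2 (red) and Ler (blue) in the Cy5 hybridization (circles) and the Cy3 hybridization (squares). Open symbols mark channels not well above background and crosses mark substitute signals; all 4 symbols of ARR7 lie between 903 and 1132, and only ARR3 and ARR5 are open throughout.

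ARR7 and ARR15 form a closely related pair of negative regulators, and both gave their best-measured values here. The dye-normalized signal of ARR7 in the Cy5 hybridization was 903 in the mutant and 941 in the wild type, and in the Cy3 hybridization it was 920 and 1132. The mutant was lower both times, with log2 ratios of -0.059 (error 0.23) and -0.30 (error 0.19). The mean was -0.18 with an interval of -0.47 to 0.12, so that on these arrays the interval ran from 0.720 to 1.08 of the level in Ler. For ARR15 the mutant's signal was 708 against 825 in the Cy5 hybridization, and the values were 748 and 745 in the Cy3 hybridization. The ratios were -0.22 and 0.0059, so only the first was lower in the mutant. The mean of -0.11 had an interval of -0.44 to 0.22. The pair differed from each other by -0.071 (ARR7 minus ARR15) with an error of 0.23.

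ARR4, whose product also binds the photoreceptor phytochrome B, had the most even pair of ratios among the 5 bright members. Its signals were 524 in the mutant and 589 in the wild type in the Cy5 hybridization, and 684 and 787 in the Cy3 hybridization. Both log2 ratios were negative, at -0.17 (error 0.32) and -0.20 (error 0.22), and they differed by 0.033. The mean of -0.19, with an interval of -0.56 to 0.19, was the lowest of the bright members, and 9.93% of all gene probes had a lower mean ratio. Its partner ARR3 was at 41.9 and 40.5 in the Cy5 hybridization and at 45.3 and 55.5 in the Cy3 hybridization, cuc1 cuc2 first. These signals were not well above background in either genotype, and its mean of -0.12 carried an error of 2.11.

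ARR5 and ARR6 are the pair whose promoters are most used as cytokinin reporters, and here only ARR6 could be read. The mutant's signal of ARR6 was 233 against 316 in the Cy5 hybridization, but 325 and 278 in the Cy3 hybridization. The ratio thus turned with the dye, from -0.44 (error 0.58) to 0.23 (error 0.38), and the channel labelled with Cy3 was the brighter one both times. The mean of -0.11 had an interval of -0.79 to 0.57. ARR5 had the lowest mean ratio of the family, -0.54, which ranked 184 from the lowest among 21500. However, 3 of its 4 signals were substitutes that the software puts in place of signals too dim to use. Its ratio was set to 0 in the Cy5 hybridization and was -1.08 (error 2.91) in the other. Probes with any substitute made up 7.44% of all gene probes, and ARR5 was the 1 member among them. Under 4 other settings of background correction and normalization its mean lay between -0.11 and -0.011.

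ARR16 and ARR17, the pair with a short C-terminal tail, differed in how well they were measured. ARR17 gave signals of 437 in the mutant and 443 in the wild type in the Cy5 hybridization, and 378 and 341 in the Cy3 hybridization. Its ratios of -0.021 and 0.15 lay on different sides of 0, and the mean of 0.064 had an interval of -0.43 to 0.56. The signals of ARR16 were 92.3 and 89.4 in the Cy5 hybridization and 89.5 and 62.0 in the Cy3 hybridization, again with cuc1 cuc2 first. The mean of 0.29 therefore came mostly from the Cy3 hybridization, where Ler was not well above background, and its error was 1.09.

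ARR8 and ARR9, which are less sensitive to cytokinin than most of the family, were the members with higher ratios in both hybridizations beside ARR16. ARR9 was at 95.5 in the mutant and 70.0 in the wild type in the Cy5 hybridization, and at 101 and 76.4 in the Cy3 hybridization. The ratios of 0.45 and 0.40 differed by only 0.049, but their errors were 1.86 and 1.17. Ler was not well above background in either hybridization, and the interval of -1.73 to 2.58 around the mean of 0.42 shows no minimum difference. ARR8 was at 102 and 93.6 and then at 89.0 and 77.5, with ratios of 0.13 and 0.20 and an error of the mean of 0.997.

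Taking signs alone, ARR4 and ARR7 were lower in the mutant in both hybridizations, 2 of 10, while 22.9% of all gene probes were. ARR8, ARR9 and ARR16 were higher in both, 3 of 10, while 23.1% of all gene probes were. These shares are near those of all probes. The ratios of ARR3, ARR6, ARR15 and ARR17 had opposite signs, and ARR5 was listed at 0 in 1 hybridization. The number of members beyond a log2 ratio of 0.5 in the same direction both times was 0 for lower and 0 for higher, against 0.344% and 0.712% of all gene probes. The median of the 10 mean ratios was -0.11, beside -0.00059 for all gene probes. It was -0.010 in the Cy5 hybridization and 0.077 in the Cy3 hybridization, so its sign depended on the array. Within each of the 5 pairs both means had the same sign, but each pair's difference was smaller than its error, and cross-hybridization between paralogs was not tested.

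What the arrays could have shown differed widely between members. The ratio needed for a call in both hybridizations was computed with the errors as deposited. It was at least 1.51-fold for ARR7, 1.58-fold for ARR15, 1.77-fold for ARR4, 1.98-fold for ARR17 and 2.83-fold for ARR6. The interval of each of these 5 genes lay above that of STM, and the lowest bound among them, that of ARR6, corresponded to a level of 0.580 of Ler. For the other 5 genes the ratio needed was at least 16.3-fold, so a difference of the size seen for STM was not detectable for them. Such limits follow the brightness of a probe, and they were not recomputed for a dimmer mutant channel. In the Cy5 hybridization STM had a Ler signal of 919, against 941 for ARR7. The error there was 0.39 for STM and 0.23 for ARR7, and STM needed a ratio of 2.02-fold. Among the 4300 dimmest gene probes, which held 5 members, the median error of the mean was 1.36 and 0 probes were called. Among the 4300 probes of middle brightness, which held ARR4, ARR7 and ARR15, the median error was 0.16 and 42 probes were called.

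**Figure D3:**
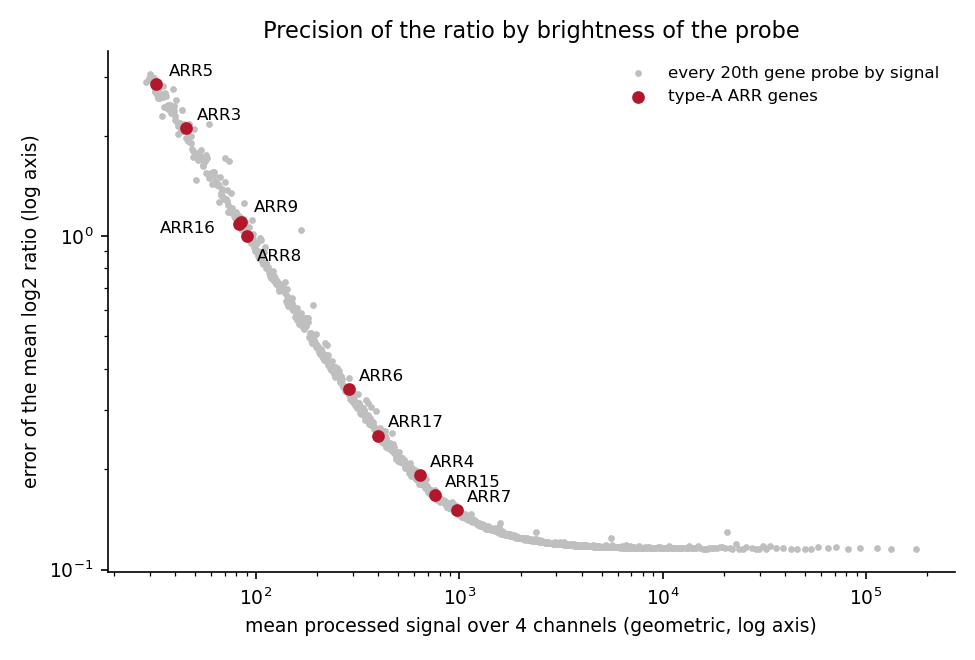
Error of the mean log2 ratio (log axis) against the mean processed signal over the 4 channels (log axis), for every 20th gene probe by signal (grey) and the type-A ARR genes (red). The family runs from ARR7, with an error of 0.15, to ARR5, with an error of 2.86.

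The rest of the cytokinin pathway was read from lists of 63 genes, of which 56 had a probe and 43 were well above background in all channels. None of the 56 was called, while 0.242% of all gene probes were called lower and 0.502% higher. Their median mean ratio was 0.010. In both hybridizations 9 were lower (16.1%) and 12 higher (21.4%), beside 22.9% and 23.1% of all gene probes. A deposited p-value under 0.05 in either hybridization was found for 4 of the 56, beside 1243 of all 21500 gene probes. These 4 were ARR1, CRF3, CRF5 and GNC.

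AHK2, AHK3 and AHK4 are the cytokinin receptors of the plant. AHK2 was at 0.18, AHK3 at 0.15 and AHK4 at 0.13, and the interval of each included 0. AHK5 had the highest ratio of the 6 receptor genes at 0.62, but from 1.35 and -0.11 with an error of 0.70, and AHK1, an osmosensor, had the lowest at -0.14. Among 6 phosphotransfer genes, the means ran from -0.082 for AHP6, the pseudo-phosphotransfer protein that blocks signalling, to 0.11 for AHP1, which was well above background in no channel.

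Of the type-B regulators, 10 of 11 had a probe. ARR1 had the lowest mean of these, -0.28, from -0.44 (error 0.19) and -0.12 (error 0.18). Its deposited p-values were 0.0242 and 0.494, so it was not called, although its interval of -0.54 to -0.022 did not include 0. ARR10 and ARR12, its main partners, were at 0.0011 and -0.11. The highest mean was that of ARR19, 1.52, from 3.82 and -0.78, a probe well above background only in the Cy5 channel of each array, and the Ler signal behind the value of 3.82 was a substitute. ARR22, the type-C gene with a probe, was well above background in no channel. In all, 3 of the 10 type-B genes were lower in both hybridizations and 0 were higher, beside 22.9% and 23.1% of all gene probes. With normexp correction and median centring, 1 was lower and 2 were higher.

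Of the 11 genes that make cytokinin, 8 were well above background in all channels, while IPT4, IPT6 and IPT7 were not. IPT7, which KNOX proteins are known to activate, had log2 ratios of -0.94 (error 1.65) and 0.50 (error 0.86). IPT5 went from -0.45 to 0.29 and IPT3 from -0.16 to 0.31. IPT7 had the lowest mean of the 11 synthesis genes, -0.22, and IPT4 the highest, 0.19. In both hybridizations 1 of the 11 was lower and 1 was higher, beside 22.9% and 23.1% of all gene probes. Among the LOG enzymes, which release active cytokinin, LOG7, which also acts in the shoot meristem, was lowest at -0.28, from -0.99 and 0.44. LOG8 was highest at 0.14. Cytokinin oxidases, which break the hormone down, ran from -0.13 for CKX6 to 0.062 for CKX1. The glucosyltransferases UGT76C1 and UGT76C2 were at 0.28 and 0.16.

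Of 4 other listed genes that cytokinin induces, 3 had a probe. In both hybridizations 2 of the 3 were higher and 1 was lower, beside 23.1% and 22.9% of all gene probes. With normexp correction and median centring, 1 was higher and 0 were lower. The GATA factor genes CGA1 and GNC, which promote chloroplast development, were higher in both hybridizations. GNC had log2 ratios of 0.79 and 0.27 with deposited p-values of 0.00096 and 0.156, and its interval of 0.23 to 0.83 did not include 0. CGA1 had 1.42 (error 1.16) and 0.48 (error 0.89) with Ler not well above background in the first. The CGA1 interval of -0.48 to 2.38 included 0. The cyclin gene CYCD3;1 was at -0.20, from -0.16 and -0.24, with an interval of -0.43 to 0.034 that included 0. Of the cytokinin response factors, CRF3 was highest at 0.29 and CRF2 lowest at -0.14. In both hybridizations 3 of the 6 were higher and 2 were lower, beside 23.1% and 22.9% of all gene probes. The interval of CRF3, 0.039 to 0.54, did not include 0, with deposited p-values of 0.046 and 0.237. CRF5 had log2 ratios of -0.092 and 0.38 with deposited p-values of 0.607 and 0.0249. The CRF5 interval of -0.097 to 0.39 included 0.

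Of the 8 regulators of the apex, a list that also holds CUC1 and CUC2, 4 were lower and 3 higher in both hybridizations, beside 22.9% and 23.1% of all gene probes. Their median was -0.14, and STM was the 1 gene called, as lower, beside 0.242% of all gene probes called lower. The study cites an earlier report of lower STM expression in cuc1 cuc2. CUC2 had an interval of -1.25 to -0.38. CLV3, the stem cell peptide gene, was at -0.50 from -0.82 and -0.17, with an interval of -1.05 to 0.056. WUS, the repressor of ARR5, ARR6, ARR7 and ARR15, was at -0.23 from -0.012 and -0.44, with an interval of -0.91 to 0.46. KNAT1, a KNOX gene like STM, had the highest ratio of the list, 0.21. For the KNOX gene KNAT6, the study cites earlier reports that expression is absent from the cotyledon boundary region of cuc1 cuc2 embryos. On these whole-embryo arrays KNAT6 was at 0.077, from 0.12 and 0.039, with an interval of -0.28 to 0.44. Its probe was well above background in all 4 channels. Whether a loss in that region alone would show in whole embryos was not tested.

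**Figure D4:**
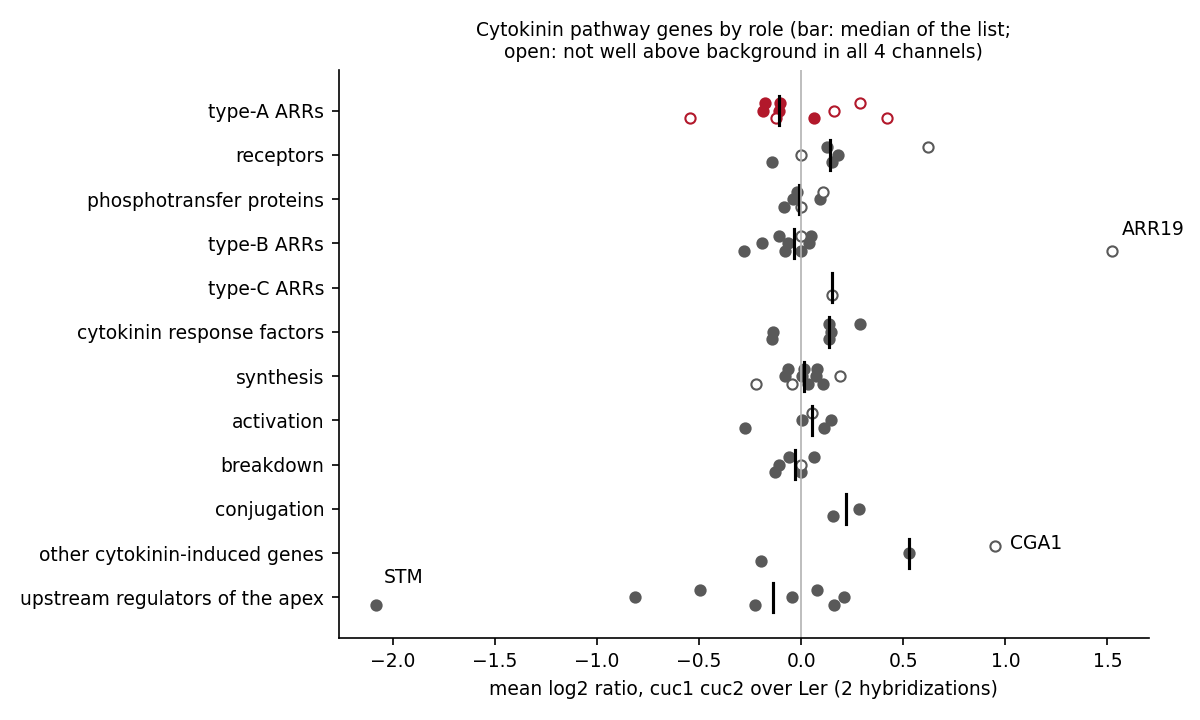
Log2 ratio of cuc1 cuc2 over Ler, averaged over 2 hybridizations, for the genes of each list, with the median of the list as a bar. Open points were not well above background in all 4 channels; the type-A ARR genes (red) lie between -0.54 and 0.42, and STM at -2.08 stands apart from them.

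When the signals were processed anew from the spot brightness, the ratios of all members but ARR6 shrank or changed sign under all 4 settings. ARR9 fell from 0.42 to between 0.018 and 0.10, and ARR16 from 0.29 to between 0.0090 and 0.090. Of the bright members, ARR7 lay between -0.13 and -0.096, ARR4 between -0.15 and -0.083 and ARR15 between -0.078 and -0.060. ARR17 shrank from 0.064 to between 0.012 and 0.015, and ARR6 lay between -0.12 and -0.043. ARR3 changed sign under 2 of the 4 settings and ARR8 under 1. The software subtracted a median of 138 in the Cy3 channel of the Cy5 hybridization, where the local background was 72, but 75.2 against 65 in the Cy5 channel. Plain subtraction took only the local background, the setting without correction took none, and both normexp settings added an offset. Signal left or added in both channels makes the ratio of a dim probe smaller. The shrinkage is thus partly built into the settings and does not show that the deposited ratios were too large. How much of it arose this way was not tested.

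**Figure D5:**
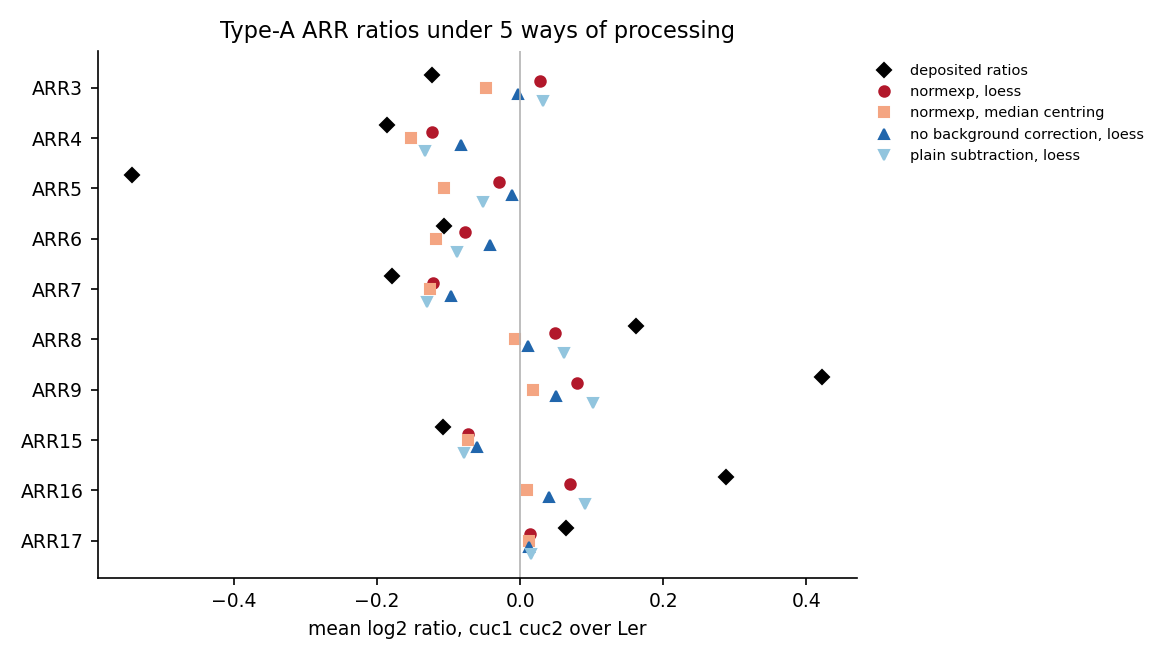
Mean log2 ratio of each type-A ARR gene from the deposited ratios (black) and from 4 other combinations of background correction and normalization (colours). All values of the other settings lie between -0.15 and 0.10, and the largest moves are those of ARR5, ARR9 and ARR16.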

How the data were processed

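Total RNA of about 100 embryos each of Ler and cuc1-1 cuc2-1 was amplified, labelled and hybridized to Agilent 2-colour arrays with 22575 spots, as 1 dye swap of the same extracts. The authors deposited Agilent Feature Extraction A.7.5.1 output. Its deposited log10 values are the ratio of red over green signal and its error. The deposited p-value is that of this ratio within 1 array. The deposited intensity values are spot brightness, local background, the background the software subtracted, and signals normalized between the dyes. A deposited series table held the same log10 ratios within 1.66e-09 on the log2 scale.

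Ratios and errors were put on the log2 scale, turned by the dye labels so that cuc1 cuc2 stands over Ler, and averaged over both arrays, with the error combined from both. The deposited p-value equalled that of ratio over error in a normal distribution to within 3.23e-08, from which the smallest callable ratio was computed. Intervals are at 95% and cover array error only. Precision is limited by the number of arrays. Control spots were left out and no filter was used. Of the gene identifiers, 21191 matched RefSeq's. The members and lists were chosen with earlier results of these data known. Named are all members, STM, CUC1, CUC2, WUS, IPT3, IPT5, IPT7, called list genes, and the extremes of each list. Other genes, among them AHK2, AHK3, AHK4, ARR10, ARR12, ARR22, CRF5, GNC, CLV3, KNAT6 and the markers, were added after their values were seen. No test across replicates was possible. The call rule was run on simulated data with noise drawn from the deposited errors. This checks the computation only and says nothing of the spread between embryos. The call rule was also run at other limits of p, with adjusted p-values (Benjamini-Hochberg), with a limit on size, on probes well above background alone, and in single hybridizations. Spot brightness was processed anew with limma 3.58.1 in R 4.3.3 in 4 ways. Loess normalization followed either normexp (offset 50), plain subtraction or no background correction, and normexp was also followed by median centring. Python 3.11.15 with pandas 2.3.3, numpy 2.4.6 and scipy 1.17.1 did the rest, and plots were drawn with matplotlib 3.10.9.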

Additional observations from a re-analysis of the deposited data

How the results depend on the processing

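No type-A ARR gene was called under any rule tried, by deposited p limits of 0.05, 0.01 or 0.001, by adjusted p-values, by size or in either hybridization alone. The median of the 10 genes was -0.11 and moved to -0.0082 with normexp and loess, to -0.0072 without background correction and to -0.018 with plain subtraction, and it lay between -0.010 and 0.077 in single hybridizations. The count lower, 2, became 1 with normexp and median centring and lay between 4 and 5 in single hybridizations. The count higher, 3, became 0 with that setting and with only probes well above background, and lay between 4 and 6 in single hybridizations, where fewer signs have to match. Over all gene probes the 52 lower and 108 higher calls became 102 and 237 at a limit of 0.05, 22 and 55 at 0.001, and 16 and 39 with Benjamini-Hochberg adjustment. Single hybridizations gave 95 to 138 lower and 198 to 239 higher. Under the 4 limma settings, 12 of 40 values of single members, those of ARR4, ARR8 and ARR9, moved by more than the SD between hybridizations. That SD rests on 2 arrays and did not follow brightness among the dim members. It was 0.34 for ARR16, so that 0.0090 instead of 0.29 stayed within it, but 0.052 for ARR8 and 0.035 for ARR9. For the other lists, 21 of 76 alternative medians moved by more than the SD between the medians of the hybridizations, and 42 of 152 alternative counts moved by more than 1.5 times. The cause was not tested, though smaller ratios of dim probes are partly built into the limma settings, as described above. No paired analysis was possible because both arrays hold the same pair of extracts. The depth of 1 dye swap and the dimness of 5 of the 10 probes limit what can be read.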
